A study of Homo sapiens with 6 samples.

Results

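A group of 40 protein-coding genes that lie near each other on the long arm of chromosome 18, from CXXC1 to MBP and including SMAD4 and MALT1, was examined among the 22354 loci of the count table. The genes were selected on their measured counts, because the region lay lower in the libraries labelled BMAL1 knockout than in the controls, and genes of the SERPINB cluster inside it were left out. Their differences between those groups are therefore a description of what was chosen and carry no test. RNA was sequenced from 6 libraries of HTori-3.1, a human thyroid cell line, of which 3 were labelled control with a wild type genotype and 3 were labelled with an sgRNA against BMAL1. The knockout cells had been infected with lentivirus carrying Cas9 and the sgRNA, selected with puromycin and grown from single clones. How many clones the 3 libraries came from was not given in the sources used here, so clone and genotype cannot be told apart. Both groups received etoposide, a topoisomerase poison that damages DNA, at 2 μM; the exposure is given as 12 h in the sample labels and as 24 h in the treatment protocol. Total counts were 26893063, 27029060 and 28513703 in the control libraries and 43148059, 29860233 and 43563391 in those labelled knockout. Nothing in the labels says that replicates were separate cultures, so the p-values measure the spread between these samples, which may be technical.

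Genes that lie side by side on a chromosome need share no function, and their transcripts are usually set gene by gene. SMAD4 is the common partner of the SMAD proteins that carry TGF-beta and BMP signals to the nucleus, and MALT1 is a scaffold and protease of NF-κB signalling. Other genes of the region serve lipid and amino acid metabolism, protein secretion, chromatin and cell division.

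The targeted gene was read first. BMAL1 (ENSG00000133794.20) was measured at 11.3, 12.2 and 14.6 CPM, counts scaled to a common total with TMM factors, in the control libraries and at 17.9, 19.8 and 19.4 CPM in those labelled knockout. All 3 libraries labelled knockout lay above all 3 controls, so the RNA of the targeted gene was not lower under the knockout label. The log2 fold change was 0.58 (standard error, SE, 0.11), with an adjusted p = 0.0237 by the edgeR quasi-likelihood test, corrected over all loci after Benjamini and Hochberg (BH). The edgeR adjusted p was over 0.05 without control replicate 1, control replicate 2, knockout replicate 2 or knockout replicate 3, and with knockout replicate 2 alone against the controls. Over all alternatives, other tools included, the adjusted p ranged from 0.00163 with DESeq2 to 0.146 with knockout replicate 2 alone. An RNA level does not show whether the protein was lost; the study assayed BMAL1 protein by Western blot, which was not analysed here. Every direction given for the members is that of the libraries labelled knockout over control.

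All 40 members passed the filter on low counts, as did 14860 loci in all. The log2 fold change was under 0 for 35 of the 40 members, beside 47.7% of all loci tested. It was at or above 0 for 5 members, namely SKA1, ELAC1, MEX3C, TCF4 and RNF152, so the name of the group does not hold for each of its genes. The median log2 fold change was -0.12, beside 0.0097 over all loci tested, and the members ranged from -0.49 for CCDC68 to 0.35 for ELAC1. The members were chosen for lying lower, and the roles below were grouped after the values were seen. A count of members under 0 within a role is therefore not read as a trait of that role. The differences were small: 26 members lay under -0.1, 11 under -0.2 and 5 under -0.3. Only 3 of the 40, ATP8B1, NEDD4L and CNDP2, were among the loci called lower by edgeR across the whole table (1.36% of all loci), and 16 of the 40 had all 3 libraries labelled knockout below all 3 controls (11.5% of all loci); since the members were chosen by this contrast, nothing is read from either count.

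The libraries did not contribute alike. Relative to the mean of the controls, the median log2 CPM of the members was -0.023, -0.016 and 0.039 in the control libraries and -0.058, -0.17 and -0.17 in those labelled knockout. Knockout replicates 2 and 3 lay lowest, and knockout replicate 1 lay between them and the controls. Against the mean of the controls, 24 members were lower in knockout replicate 1, 35 in replicate 2 and 35 in replicate 3. The same count was 26, 25 and 16 in control replicates 1, 2 and 3. By this count knockout replicate 1 lay within the range of the controls. Control replicate 3 was the highest control. Without it the median log2 fold change of the members was -0.069, with 29 members under 0, and without knockout replicate 1 it was -0.16, with 36 under 0.

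**Figure D1:**
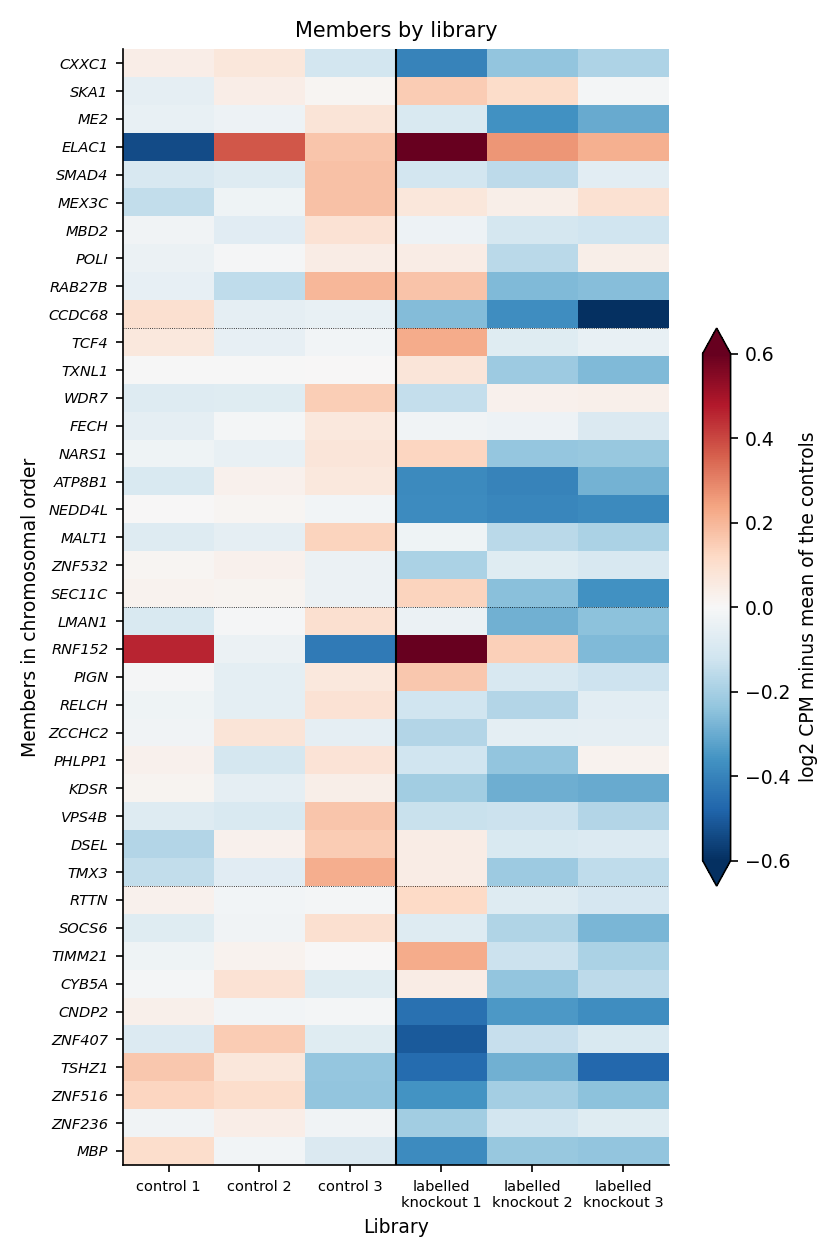
Log2 CPM of each of the 40 members (vertical axis, in chromosomal order) minus its mean in the controls, for each of the 6 libraries (horizontal axis), with blue for lower, red for higher and the scale ending at 0.6 in both directions. NEDD4L, CNDP2 and ATP8B1 are lower in all 3 libraries labelled knockout, while TIMM21, NARS1 and SEC11C are above the controls in knockout replicate 1 and below them in the other two.

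Depth differed between the groups, since knockout replicates 1 and 3 had the largest totals. With library size as the only scaling, which put the median of all loci at 0.038, 31 members lay under 0 and their median was -0.088. With every library thinned to the smallest total, 34 members lay under 0 and their median was -0.11. Knockout replicate 2, whose total was nearest to the controls, gave a median of -0.18 when it alone was set against them. The transcripts of the members had a median GC content of 41.6%, beside 48.1% over all loci tested with a value. With each library's trend with GC content removed, 36 members lay under 0 and the median was -0.16. The order of the libraries changed with this removal: the members' median log2 CPM relative to the controls was then -0.19, -0.16 and -0.15 in knockout replicates 1, 2 and 3, so replicate 1 no longer lay between the others and the controls.

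Of the signalling genes, SMAD4 (ENSG00000141646.16, chr18:51028528-51085045 of hg38, forward strand) was measured at 90.4, 91.7 and 109 CPM in the control libraries and 89.7, 86.8 and 92.5 CPM in those labelled knockout. Control replicate 3 stood above the other libraries, and the remaining controls lay within the range of the libraries labelled knockout, so the groups overlapped. The means were 97.1 ± 10.6 CPM (SD, n = 3) against 89.7 ± 2.87 CPM (SD, n = 3), a log2 fold change of -0.11 (SE 0.088). MALT1 (ENSG00000172175.16, chr18:58671465-58754477 of hg38, forward strand) gave 72.98, 74.2 and 84.5 CPM in the control libraries and 75.7, 68.95 and 67.5 CPM in those labelled knockout. Control replicate 3 was again the highest, and knockout replicate 1 lay above the lower 2 controls. Its log2 fold change was -0.13 (SE 0.086). PHLPP1, a phosphatase that acts on AKT, and SOCS6, an adaptor that restrains kinase signalling, had log2 fold changes of -0.11 and -0.18.

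Enzymes and transporters made up 10 members, of which 9 lay under 0, with a median of -0.11. CNDP2, a cytosolic dipeptidase (ENSG00000133313.15, chr18:74495816-74523454 of hg38, forward strand), was measured at 117, 113 and 114 CPM in the control libraries and 84.2, 90.3 and 88.7 CPM in those labelled knockout. The groups were apart, by more than the spread within either. The means were 115 ± 2.10 CPM (SD, n = 3) against 87.7 ± 3.16 CPM (SD, n = 3), a log2 fold change of -0.39 (SE 0.071). ATP8B1, a flippase that moves phospholipids across the plasma membrane (ENSG00000081923.15, chr18:57646426-57803315 of hg38, reverse strand), gave 107, 116 and 119 CPM in the control libraries and 87.5, 86.3 and 93.7 CPM in those labelled knockout. Its groups did not overlap either, at 114 ± 6.23 CPM (SD, n = 3) against 89.2 ± 3.95 CPM (SD, n = 3), and its log2 fold change was -0.36 (SE 0.077). NARS1, the cytosolic asparaginyl-tRNA synthetase, had the highest level of all members per kilobase of transcript, 92.3 CPM per kilobase in the controls. It was measured at 250.3, 247 and 268 CPM in the control libraries and 278, 217 and 217 CPM in those labelled knockout. Knockout replicate 1 was the highest library of all and the other two labelled knockout were the lowest, and the log2 fold change was -0.10 (SE 0.10).

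ELAC1, a tRNA 3' processing enzyme, was the member with the largest positive difference. It gave 1.01, 1.94 and 1.68 CPM in the control libraries and 2.32, 1.80 and 1.74 CPM in those labelled knockout. The spread among the controls covered knockout replicates 2 and 3, and its log2 fold change was 0.35 (SE 0.25). The remaining enzymes lay lower by differing amounts: -0.27 for KDSR of ceramide synthesis, -0.25 for the mitochondrial malic enzyme ME2, -0.11 for cytochrome b5, -0.048 for ferrochelatase (FECH), -0.047 for DSEL and -0.013 for PIGN of GPI anchor synthesis, all as log2 fold changes.

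The 3 ubiquitin ligases did not move alike. NEDD4L, which marks membrane channels and other proteins for removal (ENSG00000049759.20, chr18:58044226-58401540 of hg38, forward strand), was measured at 128, 129 and 126 CPM in the control libraries and 98.2, 97.3 and 98.1 CPM in those labelled knockout. Replicates were close within each group and the groups were far apart. The means were 128 ± 1.27 CPM (SD, n = 3) against 97.9 ± 0.499 CPM (SD, n = 3), a log2 fold change of -0.38 (SE 0.068). MEX3C, an RNA-binding ligase, gave 22.03, 24.01 and 27.6 CPM in the control libraries and 25.7, 24.99 and 26.1 CPM in those labelled knockout. All 3 libraries labelled knockout lay within the range of the controls (log2 fold change 0.060, SE 0.10). RNF152, the member with the lowest level, gave 0.708, 0.486 and 0.357 CPM in the control libraries and 0.937, 0.557 and 0.406 CPM in those labelled knockout. Both groups spread widely and overlapped, and its log2 fold change was 0.31 (SE 0.42).

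All 7 genes of the secretory pathway and membrane traffic lay under 0, as did 35 of the 40 members. They ranged from -0.19 for LMAN1 to -0.032 for WDR7, with a median of -0.12. LMAN1, a cargo receptor that carries glycoproteins out of the endoplasmic reticulum, had 83.4 CPM per kilobase in the controls, the next highest level after NARS1. It was measured at 377, 400.1 and 429 CPM in the control libraries and 391, 329 and 338 CPM in those labelled knockout. Knockout replicate 1 lay within the controls and the other two below them (log2 fold change -0.19, SE 0.086). SEC11C, a catalytic subunit of the signal peptidase, gave 38.5, 38.3 and 37.03 CPM in the control libraries and 41.7, 31.9 and 29.5 CPM in those labelled knockout. Knockout replicate 1 was its highest library and replicates 2 and 3 its lowest (log2 fold change -0.14, SE 0.12). VPS4B, an ATPase that takes ESCRT-III apart, gave 98.5, 97.7 and 117 CPM in the control libraries and 94.8, 95.1 and 91.9 CPM in those labelled knockout. Its groups did not overlap, and control replicate 3 stood above the other controls (log2 fold change -0.15, SE 0.085). TMX3, a disulfide isomerase, gave 117, 124 and 151 CPM in the control libraries and 134, 112 and 117 CPM in those labelled knockout. Its groups overlapped, with control replicate 3 on top (log2 fold change -0.11, SE 0.10). The others were RELCH at -0.12, RAB27B at -0.11 and WDR7 at -0.032.

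Of 8 genes of chromatin and transcription, 7 lay under 0, with a median of -0.18. TSHZ1, a zinc finger factor, gave 7.16, 6.69 and 5.43 CPM in the control libraries and 4.61, 5.21 and 4.58 CPM in those labelled knockout. All 3 libraries labelled knockout lay below the lowest control, and the log2 fold change was -0.43 (SE 0.14). TCF4, an E protein of the bHLH family, gave 7.60, 7.03 and 7.18 CPM in the control libraries and 8.48, 6.91 and 7.04 CPM in those labelled knockout. Knockout replicate 1 was its highest library and replicate 2 its lowest, with a log2 fold change of 0.045 (SE 0.13) that was -0.077 with knockout replicate 2 alone. CXXC1, which brings the SET1 methyltransferase complex to CpG islands, had a log2 fold change of -0.27, and the methyl-CpG binding protein MBD2 one of -0.087. The zinc finger genes ZNF516, ZNF407, ZNF236 and ZNF532 had -0.28, -0.24, -0.13 and -0.12.

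The 3 genes of cell division and repair had a median log2 fold change of -0.016. SKA1, which couples kinetochores to microtubules, gave 43.98, 46.9 and 46.1 CPM in the control libraries and 50.7, 49.2 and 45.2 CPM in those labelled knockout. The groups overlapped and the log2 fold change was 0.084 (SE 0.082). RTTN, a centriole protein, and POLI, a translesion polymerase, had log2 fold changes of -0.016 and -0.020. CCDC68, a coiled-coil protein of the centriole appendages, had the lowest fold change of all members and gave 6.19, 5.57 and 5.61 CPM in the control libraries and 4.83, 4.45 and 3.18 CPM in those labelled knockout. Its groups did not overlap, and knockout replicate 3 was lowest (log2 fold change -0.49, SE 0.17). MBP, known as a myelin protein, lay at -0.28 and ZCCHC2 at -0.097. TXNL1, a cytosolic thioredoxin-like protein that binds the proteasome, lay at -0.13, and TIMM21, which serves protein import into mitochondria, at -0.020.

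**Figure D2:**
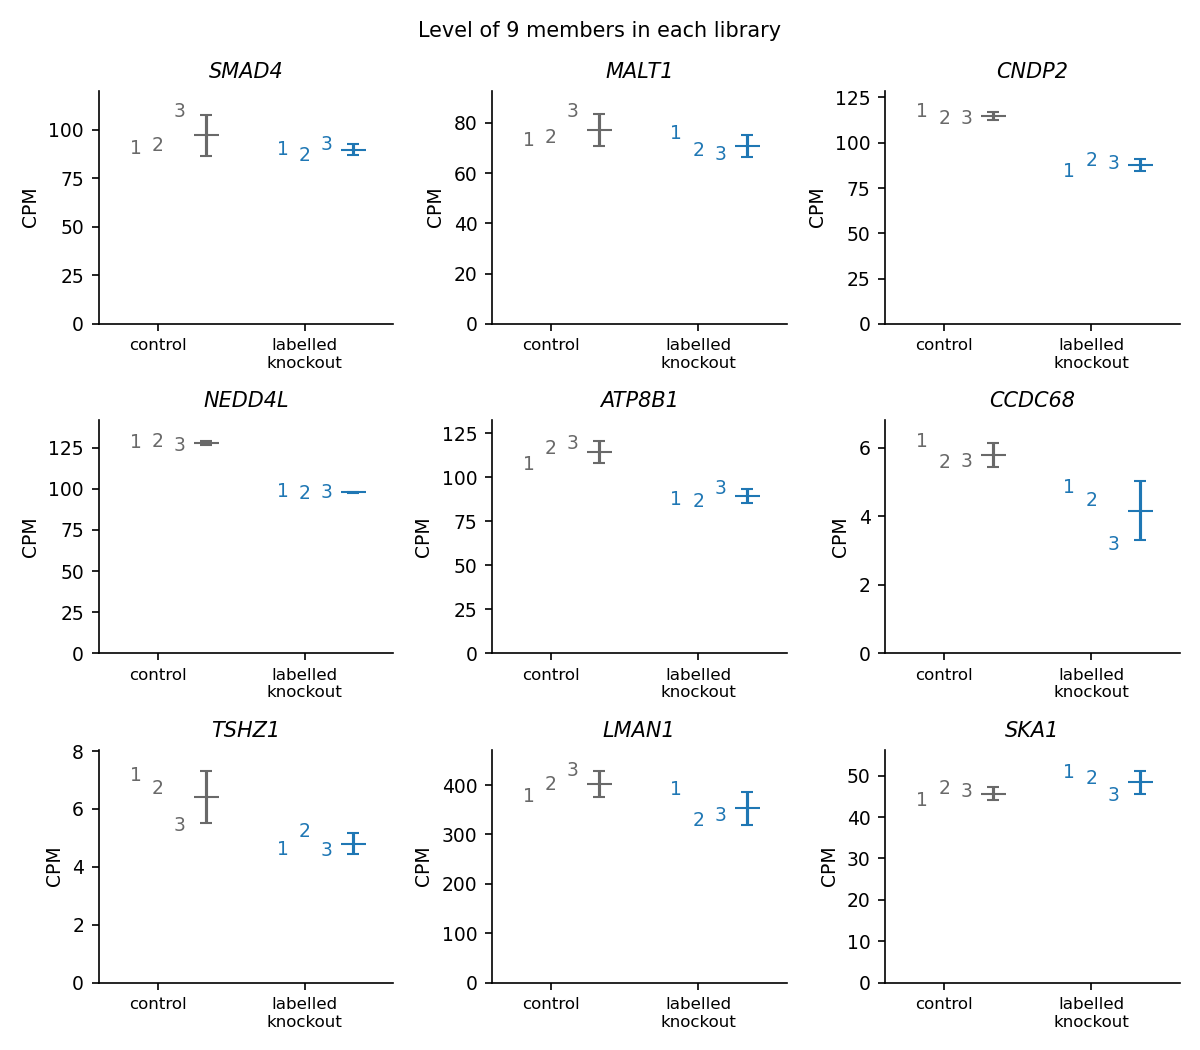
CPM (vertical axis, from 0) of 9 members in the control libraries and in those labelled knockout, with digits marking the replicate number and bars the mean ± SD (n = 3). NEDD4L, CNDP2 and ATP8B1 separate the groups, SMAD4, MALT1, LMAN1 and SKA1 overlap, and CCDC68 and TSHZ1 separate them at levels under 8 CPM.

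Levels spanned a wide range. Per kilobase of transcript, the highest member was 1561 times the lowest in the controls, and 17 of the 40 lay above the median of all loci with a known length. Of the 20 members with the higher levels, 19 lay under 0, with a median of -0.13, and of the 20 with the lower levels 16 did, with a median of -0.10. SMAD4 and ELAC1 overlap a shared unnamed coding locus on their own strand, so their values are uncertain however strand was treated. TXNL1 overlaps WDR7 on the opposite strand, and these values are uncertain too, since whether counting used strand was not given in the sources used here.

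Position along the chromosome was compared next. The members span chr18:50282343-77133683 of hg38, 26.9 Mb, with 20 on each strand. Taken 10 at a time in order, the median log2 fold change was -0.096 from CXXC1 to CCDC68, -0.12 from TCF4 to SEC11C, -0.11 from LMAN1 to TMX3 and -0.21 from RTTN to MBP. The last 10 members all lay under 0. Relative to the controls, the median log2 CPM of these last 10 was -0.28, -0.19 and -0.21 in knockout replicates 1, 2 and 3, whereas that of the first 10 was 0.0069, -0.16 and -0.091. The low median of replicate 1 did not hold for each gene: of the last 10, it was the lowest library labelled knockout for 5, among them CNDP2 and MBP, and the highest for 4, RTTN, SOCS6, TIMM21 and CYB5A, of which all but SOCS6 lay above the mean of the controls in it. GC content differed along with position, with transcript medians of 42.1%, 42.5%, 39.3% and 47.00% in the same order. With each library's trend with GC content removed, the medians in knockout replicates 1, 2 and 3 were -0.28, -0.19 and -0.21 for the last 10 and -0.13, -0.15 and -0.078 for the first 10, so replicate 1 was no longer close to the controls for the first 10. The difference by position was not tested.

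Among the 13 tested genes that lie inside the interval but are neither members nor SERPINB genes, 9 lay under 0 and the median was -0.19. CCBE1 and PMAIP1 had -0.44 and -0.32, while TNFRSF11A and CCDC102B had 0.37 and 1.25; these 4 were picked after their values were seen. The SERPINB genes left out by the choice of members ranged from -2.37 for SERPINB2 to 1.28 for SERPINB5. Outside the interval the median was -0.031 over 75 genes of the long arm before CXXC1, -0.042 over 47 genes of the short arm, -0.076 over 10 genes after MBP and 0.010 over the other chromosomes. Without control replicate 3 the short arm's median was 0.0048. By whole chromosome, chromosome 18 had a median of -0.059, and chromosome 21 a lower one of -0.14.

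The nearest tested neighbours on each side were read library by library. MBD1, just before CXXC1, gave 92.5, 91.1 and 87.8 CPM in the control libraries and 77.3, 85.3 and 85.6 CPM in those labelled knockout. All 3 libraries labelled knockout lay below the controls, at a log2 fold change of -0.13 (SE 0.076). CFAP53, beside it, gave 1.30, 0.860 and 0.286 CPM in the control libraries and 1.22, 0.786 and 0.858 CPM in those labelled knockout. Its groups overlapped at a low level (log2 fold change 0.26, SE 0.41). ATP9B, after MBP, gave 18.04, 15.2 and 14.7 CPM in the control libraries and 16.2, 15.2 and 15.6 CPM in those labelled knockout. NFATC1, beyond it, gave 10.6, 9.12 and 8.89 CPM in the control libraries and 10.2, 8.91 and 9.07 CPM in those labelled knockout. Both overlapped between groups, with log2 fold changes of -0.025 (SE 0.11) and -0.022 (SE 0.12).

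**Figure D3:**
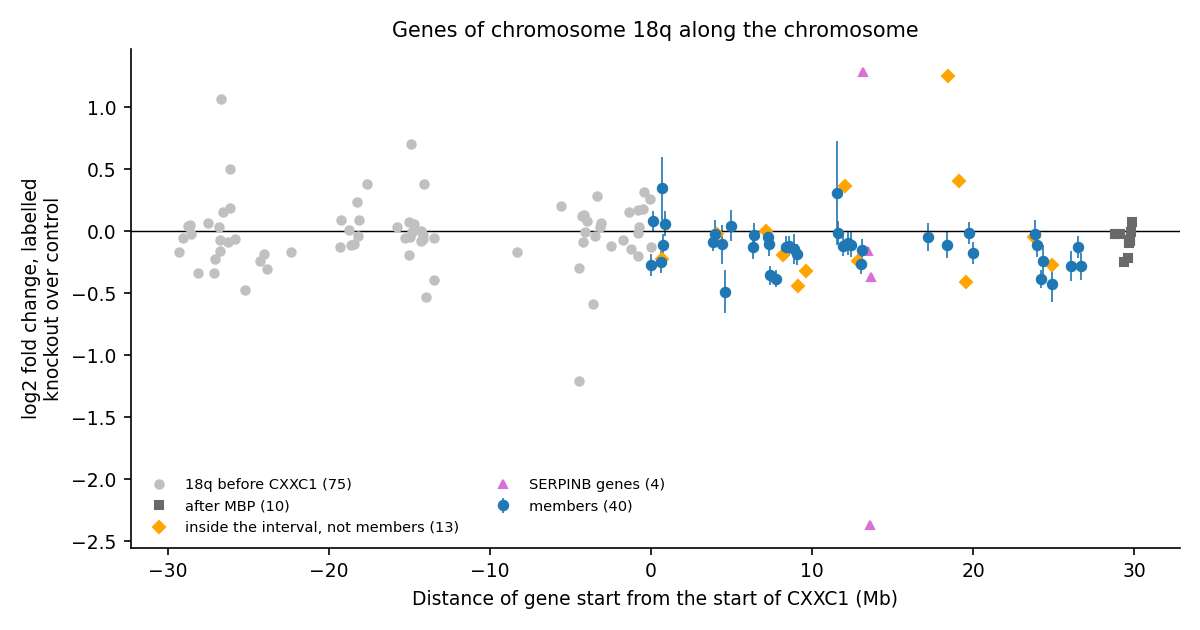
Log2 fold change of the libraries labelled knockout over control (vertical axis) for tested genes of 18q, by distance of the gene start from that of CXXC1 in Mb (horizontal axis); blue points are the 40 members with bars of 1 standard error, and other symbols are genes outside the group. Most members sit just under 0, and the SERPINB genes spread from -2.37 to 1.28 in the middle of them.

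**Figure D4:**
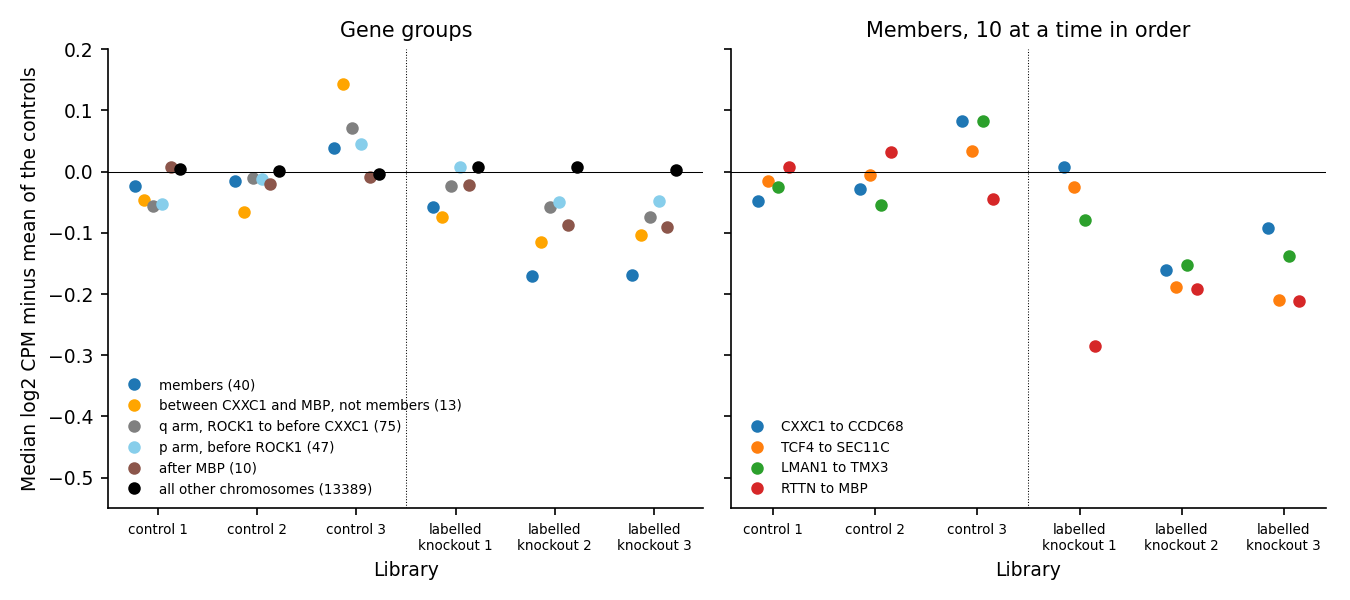
Median log2 CPM minus the mean of the controls (vertical axis) in each of the 6 libraries (horizontal axis), for groups of genes by position on the left and for the members 10 at a time in chromosomal order on the right; each point is a median over genes. The members are lowest in knockout replicates 2 and 3, and those from RTTN to MBP reach -0.28 in knockout replicate 1.

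Since BMAL1 binds DNA with CLOCK, the promoters of the members were searched for the letters CACGTG. This is the canonical E-box, which reads the same on both strands. RefSeq gave 63 promoters of 37 members, each 300 bases from 250 before to 50 after a start site on build GRCh38.p14; ATP8B1, RNF152 and TSHZ1 were not matched. The letters were in 6 of them (9.52%), beside 7.26% of all 35116 promoters of that length. With CACGTT also allowed, on either strand, the shares were 12.7% and 12.2%. The 6 promoters with CACGTG belong to POLI, TCF4, ZNF532, SEC11C and CNDP2, whose log2 fold changes were -0.020, 0.045, -0.12, -0.14 and -0.39. They are shown so that the place of the letters, in capitals, can be seen; a match is a description and not a binding site.
POLI promoter 1 of 1, chr18:54269324-54269623, forward strand: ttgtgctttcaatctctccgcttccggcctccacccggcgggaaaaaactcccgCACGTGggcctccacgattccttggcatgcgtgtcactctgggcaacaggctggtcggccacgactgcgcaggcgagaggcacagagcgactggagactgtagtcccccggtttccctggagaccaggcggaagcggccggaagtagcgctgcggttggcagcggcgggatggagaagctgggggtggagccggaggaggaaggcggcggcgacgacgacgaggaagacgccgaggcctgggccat
TCF4 promoter 3 of 10, chr18:55588568-55588867, reverse strand: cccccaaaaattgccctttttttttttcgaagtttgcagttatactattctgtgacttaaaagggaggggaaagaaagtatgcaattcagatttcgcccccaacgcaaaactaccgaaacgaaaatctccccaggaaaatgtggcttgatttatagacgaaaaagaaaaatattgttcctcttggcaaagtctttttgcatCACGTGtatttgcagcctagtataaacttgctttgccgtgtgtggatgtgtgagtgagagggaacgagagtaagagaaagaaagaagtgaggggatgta
ZNF532 promoter 3 of 5, chr18:58863841-58864140, forward strand: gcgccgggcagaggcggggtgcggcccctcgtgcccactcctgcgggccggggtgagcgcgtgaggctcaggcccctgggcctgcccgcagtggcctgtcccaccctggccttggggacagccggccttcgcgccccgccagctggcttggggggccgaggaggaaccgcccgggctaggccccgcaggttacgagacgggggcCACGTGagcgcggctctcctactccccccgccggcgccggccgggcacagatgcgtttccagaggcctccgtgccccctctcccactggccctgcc
SEC11C promoter 1 of 1, chr18:59139634-59139933, forward strand: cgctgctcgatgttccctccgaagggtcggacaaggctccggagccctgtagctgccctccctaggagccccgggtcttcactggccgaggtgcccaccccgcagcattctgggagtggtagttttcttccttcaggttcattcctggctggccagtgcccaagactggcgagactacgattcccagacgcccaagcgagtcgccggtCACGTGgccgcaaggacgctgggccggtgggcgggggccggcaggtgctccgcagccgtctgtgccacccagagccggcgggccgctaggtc
CNDP2 promoter 1 of 3, chr18:74496113-74496412, forward strand: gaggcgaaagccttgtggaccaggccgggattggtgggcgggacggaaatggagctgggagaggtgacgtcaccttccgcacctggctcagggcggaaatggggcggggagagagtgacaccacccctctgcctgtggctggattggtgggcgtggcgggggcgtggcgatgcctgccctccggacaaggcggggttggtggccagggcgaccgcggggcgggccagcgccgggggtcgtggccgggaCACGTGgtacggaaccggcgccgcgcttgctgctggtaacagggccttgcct
CNDP2 promoter 3 of 3, chr18:74499642-74499941, forward strand: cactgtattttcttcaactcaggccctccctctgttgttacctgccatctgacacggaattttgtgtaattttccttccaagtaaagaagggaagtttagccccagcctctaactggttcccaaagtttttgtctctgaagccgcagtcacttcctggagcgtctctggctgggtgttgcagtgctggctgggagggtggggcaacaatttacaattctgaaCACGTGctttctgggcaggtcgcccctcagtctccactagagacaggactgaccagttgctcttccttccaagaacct

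The partners, pathways and paralogs of the members were read from 16 lists holding 240 tested genes, none of them a member. Of these, 5 (2.08%) were called higher, beside 1.01% of all loci, and 2 (0.833%) were called lower, beside 1.36% of all loci. The median log2 fold change of the list genes was 0.0048. The lists were chosen with earlier results of these data known, so these shares and the calls below are a description. Around SMAD4, 2 of 23 genes listed as SMAD proteins and TGF-beta or BMP receptors rose. That list also holds SKI, SKIL, TGIF1, TGIF2 and TRIM33. Of 17 SMAD4 target genes, 3 rose, with SMAD6 counted in both lists. DESeq2 called 6 of the 17, and 13 lay above 0 and 4 below. Their summed level was 5853, 5878 and 6164 CPM in the controls and 4559, 5140 and 5546 CPM in the libraries labelled knockout. FN1, the most abundant target, had a log2 fold change of -0.38 and was not called by edgeR. SMAD9, a BMP receptor-regulated SMAD, was measured at 5.96, 5.68 and 6.32 CPM in the control libraries and 11.1, 12.8 and 12.1 CPM in those labelled knockout. It rose in all 3 libraries labelled knockout, by a log2 fold change of 1.00 (SE 0.12, BH-adjusted p = 0.00200 by the edgeR quasi-likelihood test). ID2, a BMP target, gave 12.6, 12.8 and 15.1 CPM in the control libraries and 24.2, 22.6 and 23.2 CPM in those labelled knockout. It rose by 0.79 (SE 0.10, BH-adjusted p = 0.00305 by the edgeR quasi-likelihood test) on the log2 scale, a call lost with knockout replicate 2 alone against the controls (edgeR BH-adjusted p = 0.0685, the highest over all alternatives). SMAD6, an inhibitory SMAD, rose by 0.62 (SE 0.12, BH-adjusted p = 0.0201 by the edgeR quasi-likelihood test), and CDKN2B, a cyclin-dependent kinase inhibitor, by 0.66 (SE 0.12, BH-adjusted p = 0.0160 by the edgeR quasi-likelihood test); both calls were lost when any 1 library other than knockout replicate 1 was left out, that of CDKN2B also with knockout replicate 2 alone, and over all alternatives the adjusted p reached 0.0988 and 0.0852.

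Around MALT1, 1 of 23 partners and substrates was called, TNFAIP3, which encodes the MALT1 substrate A20. It was measured at 48.4, 46.8 and 43.8 CPM in the control libraries and 30.5, 29.5 and 32.9 CPM in those labelled knockout. It fell in all 3 libraries labelled knockout, with a log2 fold change of -0.58 (SE 0.086, BH-adjusted p = 0.00547 by the edgeR quasi-likelihood test). Among 9 tested relatives and partners of TCF4, ID4 rose, as did ID2, which is also among the SMAD4 targets; ID4, at 0.634, 0.449 and 1.18 CPM in the controls and 1.85, 2.13 and 2.44 CPM in the libraries labelled knockout, had a log2 fold change of 1.49 (SE 0.30, BH-adjusted p = 0.0258 by the edgeR quasi-likelihood test), a call lost without control replicate 1, control replicate 2, knockout replicate 2 or knockout replicate 3 and with knockout replicate 2 alone (adjusted p up to 0.201). Of 21 genes of the cytosolic tRNA synthetases and their scaffold proteins AIMP1 and AIMP2, NARS1 left out, VARS1 fell, with a log2 fold change of -0.38 (SE 0.083, BH-adjusted p = 0.0360 by the edgeR quasi-likelihood test). The call was kept in 10 of 17 alternatives and lost, among others, without any 1 control, without knockout replicate 2, with that replicate alone and with library size as the only scaling; over all alternatives the adjusted p reached 0.159.

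The other 11 lists, for haem synthesis, GPI anchor synthesis, ESCRT-III, ceramide synthesis, the NEDD4 family, the AKT pathway, the signal peptidase and cargo receptors, the SET1 complex, the kinetochore, translesion polymerases and the nearest paralogs of the members, held 155 tested genes. edgeR called 0 of them, and 15 had an unadjusted p under 0.05, beside 16.9% of all loci. DESeq2 called 1 and limma-voom 0, beside 4.47% and 2.1% of the loci with an adjusted p. The median log2 fold change of the paralogs was -0.0082.

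Markers of thyroid and of other cell types were read, although the libraries came from a cell line and not from tissue. In a cell line, a marker is read as the level of a gene and not as a count of cells. Fewer cells of a type and less RNA per cell cannot be told apart in bulk samples. Of 15 thyroid follicular markers, 6 were tested and none was called by edgeR, DESeq2 or limma-voom, with 2 at an unadjusted p under 0.05 (edgeR, 16.9% of all loci); NKX2-1, IYD and DUOXA2 were at 0 counts in all 6 libraries, thyroglobulin (TG) had at most 13 counts, and PAX8 was the most abundant. Their summed level was 184, 185 and 215 CPM in the controls and 144, 161 and 186 CPM in the libraries labelled knockout. Of the 6 tested, 2 lay under 0, PAX8 at -0.28 and FOXE1 at -0.26. The other 4 lay above 0, and the median log2 fold change was 0.106. Of 8 epithelial markers, led by KRT8, 6 were tested, 2 lower and 4 higher, with a median log2 fold change of 0.16. KRT18 fell, with a log2 fold change of -0.50 (SE 0.075, BH-adjusted p = 0.00588 by the edgeR quasi-likelihood test), a call lost without control replicate 2, and DESeq2 and limma-voom each called 2 of the list. KRT8 lay at -0.28, and KRT7, KRT19, CLDN4 and EPCAM lay at 0.098, 0.23, 0.60 and 1.55, none of them called by edgeR; EPCAM was under 1 CPM in every library. The summed level of the 8 epithelial markers was 2991, 3046 and 2898 CPM in the controls and 2541, 2483 and 2564 CPM in the libraries labelled knockout. Of 9 leukocyte markers, led by CD68, 3 were tested and PTPRC fell, with a log2 fold change of -1.42 (SE 0.15, BH-adjusted p = 0.00107 by the edgeR quasi-likelihood test), while CD68 and CD14 lay at -0.27 and 0.97 and were not called, and CD3D, CD3E, CD2 and MS4A1 were at 0 counts throughout. Their summed level was 19.6, 20.1 and 18.1 CPM in the controls and 14.4, 12.5 and 13.2 CPM in the libraries labelled knockout.

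For 7 fibroblast markers, led by COL1A1, the summed level was 922, 926 and 789.6 CPM in the controls and 718, 935 and 989 CPM in the libraries labelled knockout, with LUM and DCN at 0 counts in all 6 and 2 tested. For 6 endothelial markers, led by VWF, it was 2.76, 2.13 and 2.54 CPM and 1.43, 1.64 and 2.08 CPM, with EMCN at 0 counts and 3 tested, all under 0. None of the tested markers of either list was called by edgeR, DESeq2 or limma-voom, and 0 had an unadjusted p under 0.05. The epithelial, endothelial and leukocyte sums were lower in all 3 libraries labelled knockout than in every control, although most tested epithelial markers lay above 0. The summed level of the members was also lower in each, at 2424, 2184 and 2208 CPM against 2467, 2508 and 2666 CPM. The part of these markers in the members' values was not tested. Mitochondrial RNAs made up 4.73%, 5.03% and 5.03% of the counts in the controls and 5.26%, 5.23% and 5.17% in the libraries labelled knockout, each of which lay above every control; their part in the members' values was not tested. Scaled with TMM factors, the summed level of 13 mitochondrial RNAs overlapped between the groups, at 47364, 50831 and 51222 CPM and 53162, 51121 and 50780 CPM.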

How the data were processed

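The authors deposited raw counts per gene and library, without normalization, made from quality-filtered reads with a unique position on hg38; the submitters' notes name fastp 0.20.1 and HISAT2 2.0.4. The annotation and strandedness are not given in the sources used here. Coordinates came from GENCODE v44, in which 20018 of 22354 loci were matched by symbol; 2310 loci were assembled from reads. Counts were fitted with edgeR 4.0.16 in R 4.3.3 (TMM, default low-count filter, robust quasi-likelihood fit and test, group as the only term), with Benjamini-Hochberg adjustment over 14860 loci and a threshold of 0.05. DESeq2 1.42.0 and limma 3.58.1 were alternatives. The fits were tested on simulated data. Library differences used log2 CPM with a prior count of 2. Counts of 2 replicates of a group differed by 5.41 to 44.99 times the variance of counting alone, and the largest values involved knockout replicate 1. The members and lists were chosen with earlier results of these data known, and the grouping by role was made after their values were seen. Per-library values are given for SMAD4, MALT1, the 6 members with the largest absolute log2 fold change at a mean of at least 1 CPM, the 5 with the highest level per kilobase, members at or above 0, the nearest 2 neighbours on each side and BMAL1; up to 3 called genes per list are named, some by fold change alone. Segments of chromosome 18 were set by gene order, with the long arm taken to begin at ROCK1. A further leukocyte marker is not reported here.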

Additional observations from a re-analysis of the deposited data

How the results depend on the processing

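Over 17 alternatives, 27 of the 35 lower members stayed under 0 in each, and neither BMAL1 nor any called list gene named in the text changed direction. Some of these list genes lost their call in an alternative. Over all 17, the log2 fold change was 0.54 to 0.74 for SMAD6 and 0.62 to 0.74 for CDKN2B. It was 0.73 to 0.88 for ID2, 1.23 to 1.98 for ID4, -0.47 to -0.34 for VARS1 and -0.60 to -0.46 for KRT18. With the replicate block the calls were 97 higher and 119 lower, with 0 members and 1 list gene called lower, VARS1 no longer (edgeR adjusted p = 0.0796). Samples with the same number did not deviate together (r from -0.090 to -0.0047 across genes). With 3 libraries a group, these values cannot show whether samples with the same number shared a batch. DESeq2 called 256 higher and 379 lower, with 8 list genes higher, and library size alone left 1 list gene lower. With each library left out in turn, calls were 39 to 323 higher and 65 to 360 lower, members called lower 0 to 8, list genes 2 to 10 higher and 1 to 4 lower, and the log2 fold change of BMAL1 0.50 to 0.69; the median was -0.055 to 0.0048 on the short arm, -0.22 to -0.094 for other genes of the interval and -0.10 to -0.045 after MBP. The larger numbers of calls came without knockout replicate 1. Chosen after seeing the data, removal of the GC trend gave 488 higher and 609 lower, with 8 members, and 11 list genes higher and 9 lower. Also chosen after seeing the data, knockout replicate 2 alone against the controls, assumed to vary like them, gave 44 higher and 63 lower, 0 members, 2 list genes higher, a members' median of -0.18, -0.081 on the long arm before CXXC1 and 0.63 for BMAL1, no longer called. The causes were not tested. With 3 libraries a group and differences mostly under 0.2 on the log2 scale, spread between replicates limits single members, and levels under 1 CPM, such as RNF152, rest on few counts.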
